A study of Homo sapiens with 18 samples.

Results

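The homeobox genes that lie outside the HOX clusters and act in development were followed in HAP1 cells that lack the cohesin release factor WAPL, the cohesin loader subunit SCC4, or both. The list names 55 such genes, and 54 were found among the 20329 gene identifiers of the count tables by their Ensembl identifiers. LHX1 was not analysed here, because no table at hand paired its symbol with an identifier in the counts. HAP1 is a near-haploid human cell line that descends from a leukaemia line and grows attached to the dish.

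RNA was measured in 18 samples, 3 for each of 6 groups that fall into 2 sets. Set A held unmodified HAP1 controls, *ΔWAPL* cells of clone 3.3, *ΔSCC4* cells and *ΔWAPL*/*ΔSCC4* cells, and set B held its own unmodified controls and *ΔWAPL* cells of clone 1.14. WAPL was disrupted by CRISPR with insertion of a Blasticidin resistance cassette, and SCC4, which is encoded by the gene MAU2, with a Puromycin resistance cassette. The double knockout was made from *ΔWAPL* clone 3.3. Each mutant line was a single clone, so an effect of the lost gene and a property of the clone cannot be told apart in that line, and p-values measure only the spread between samples of one line. The sets follow the sequencing run that the deposited names carry, and set and clone cannot be told apart for *ΔWAPL*. In these bulk samples, fewer cells that express a gene and less of its RNA per cell cannot be told apart.

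Homeobox genes encode transcription factors that bind DNA through a homeodomain, and they pattern the embryo by fixing which structures form where. The class is divided by sequence and by companion domains. PAX proteins carry a paired domain, LIM homeodomain proteins carry zinc-binding LIM domains, sine oculis homologues (SIX2 to SIX5) carry a domain of that name, and TALE proteins (IRX, MEIS, PBX and TGIF) have 3 extra residues in the homeodomain. The NKL-type group holds DLX, EMX, EN, MSX and NKX genes, and the paired-like group holds ALX, OTX, PITX, PRRX and SHOX genes. Many of these genes stand alone or in small clusters in gene-poor regions and are known to be controlled by enhancers that lie far away, and cohesin, which WAPL releases from DNA and SCC4 helps to load, forms the loops that bring distant DNA together.

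Promoter sequence is shown for 3 members, PAX2, IRX4 and LMX1A, so that the start of the gene can be seen beside the values. They had the largest rises past the test against controls among the members with an entry in the sequence table. Each stretch is the 250 bases before the first listed start in the RefSeq table for GRCh38.p14, a later build than the one used for the counts, and capitals mark a GC box (GGGCGG, either strand). Windows were also searched on both strands for TAATTA, a core homeodomain motif, and TATAAA. PAX2 lies on the plus strand (chr10:100735146-100735395), and IRX4 (chr5:1886946-1887195) and LMX1A (chr1:165356716-165356965) lie on the minus strand.
PAX2: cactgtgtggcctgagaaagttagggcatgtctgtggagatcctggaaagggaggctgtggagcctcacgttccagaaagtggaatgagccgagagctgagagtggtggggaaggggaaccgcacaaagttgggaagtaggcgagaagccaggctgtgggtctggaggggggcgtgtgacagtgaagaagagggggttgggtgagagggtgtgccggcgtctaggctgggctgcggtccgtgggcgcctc
IRX4: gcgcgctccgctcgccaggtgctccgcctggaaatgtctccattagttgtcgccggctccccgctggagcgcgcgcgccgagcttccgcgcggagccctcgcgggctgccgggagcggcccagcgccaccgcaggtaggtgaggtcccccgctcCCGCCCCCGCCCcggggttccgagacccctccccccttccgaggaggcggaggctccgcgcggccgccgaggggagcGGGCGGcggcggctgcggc
LMX1A: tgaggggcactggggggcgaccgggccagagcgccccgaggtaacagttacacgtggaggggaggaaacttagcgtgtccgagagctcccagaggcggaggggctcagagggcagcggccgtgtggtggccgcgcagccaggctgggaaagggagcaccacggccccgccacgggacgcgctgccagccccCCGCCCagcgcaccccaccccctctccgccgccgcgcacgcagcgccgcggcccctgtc
The IRX4 window held 3 GC boxes, the LMX1A window held 1, and the PAX2 window held none of the 3 motifs. Over all 35116 promoter windows of this length, 42.6% held GGGCGG, 10.7% held TATAAA and 4.35% held TAATTA. The GC content was 61.6% for PAX2, 79.2% for IRX4 and 75.2% for LMX1A, against a median of 58% over all windows. The table had an entry for 41 of the members, and ALX4, ALX1 and EMX1 had none.

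Most of the members were on in control cells. A gene was called on in a group when it had at least 1 CPM (counts scaled to library size by TMM) in all 3 samples, off when it had under 0.5 CPM in all 3, and in between otherwise. By this rule 38 of 54 members (70.4%) were on in both control groups, against 11731 of 20329 genes (57.7%) overall. In both control groups 10 members were off, and 6 were neither on in both nor off in both. All but 1 of the 38, ALX4, stayed on in all 6 groups. These numbers describe the cell line and carry no test.

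All 4 sine oculis homologues (SIX2, SIX3, SIX4 and SIX5) were on in both control groups, as were 7 of 9 LIM genes, 9 of 13 NKL-type genes, 9 of 13 TALE genes, 3 of 4 PAX genes and 6 of 10 paired-like genes. The only HOXL-type member, GBX2, was not. The highest level per length was that of OTX2, a head and forebrain regulator, with a median over the 6 controls of 88.7 RPKM (CPM per kb of exon). PBX2 had 25.1 and TGIF2 22.2 RPKM, both TALE cofactors or repressors found in many tissues. SIX3, which acts in the eye and forebrain, had 13.4, and MSX1, known from limb and craniofacial tissue, had 9.84 RPKM. OTX2 passed the test in no comparison and ranged from 231.7 to 336.8 CPM over the 18 samples.

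The members off in both control groups were EMX2, GSC, IRX1, IRX4, LHX8, LMX1A, NKX2-5, PAX3, PITX3 and PRRX1. Of these LHX8, NKX2-5 and PAX3 had no read in any of the 18 samples. EMX1, EN1, GBX2, IRX2, IRX6 and PRRX2 were near the limits. Among them EN1, GBX2, IRX2 and PRRX2 were on in the controls of set B but in between in those of set A. No member differed between the 2 control groups in edgeR's quasi-likelihood test (0 of 43 tested at an adjusted p of 0.05, 4 at an unadjusted p under 0.05 and 0 in DESeq2), where 0.64% of all genes tested did.

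**Figure D1:**
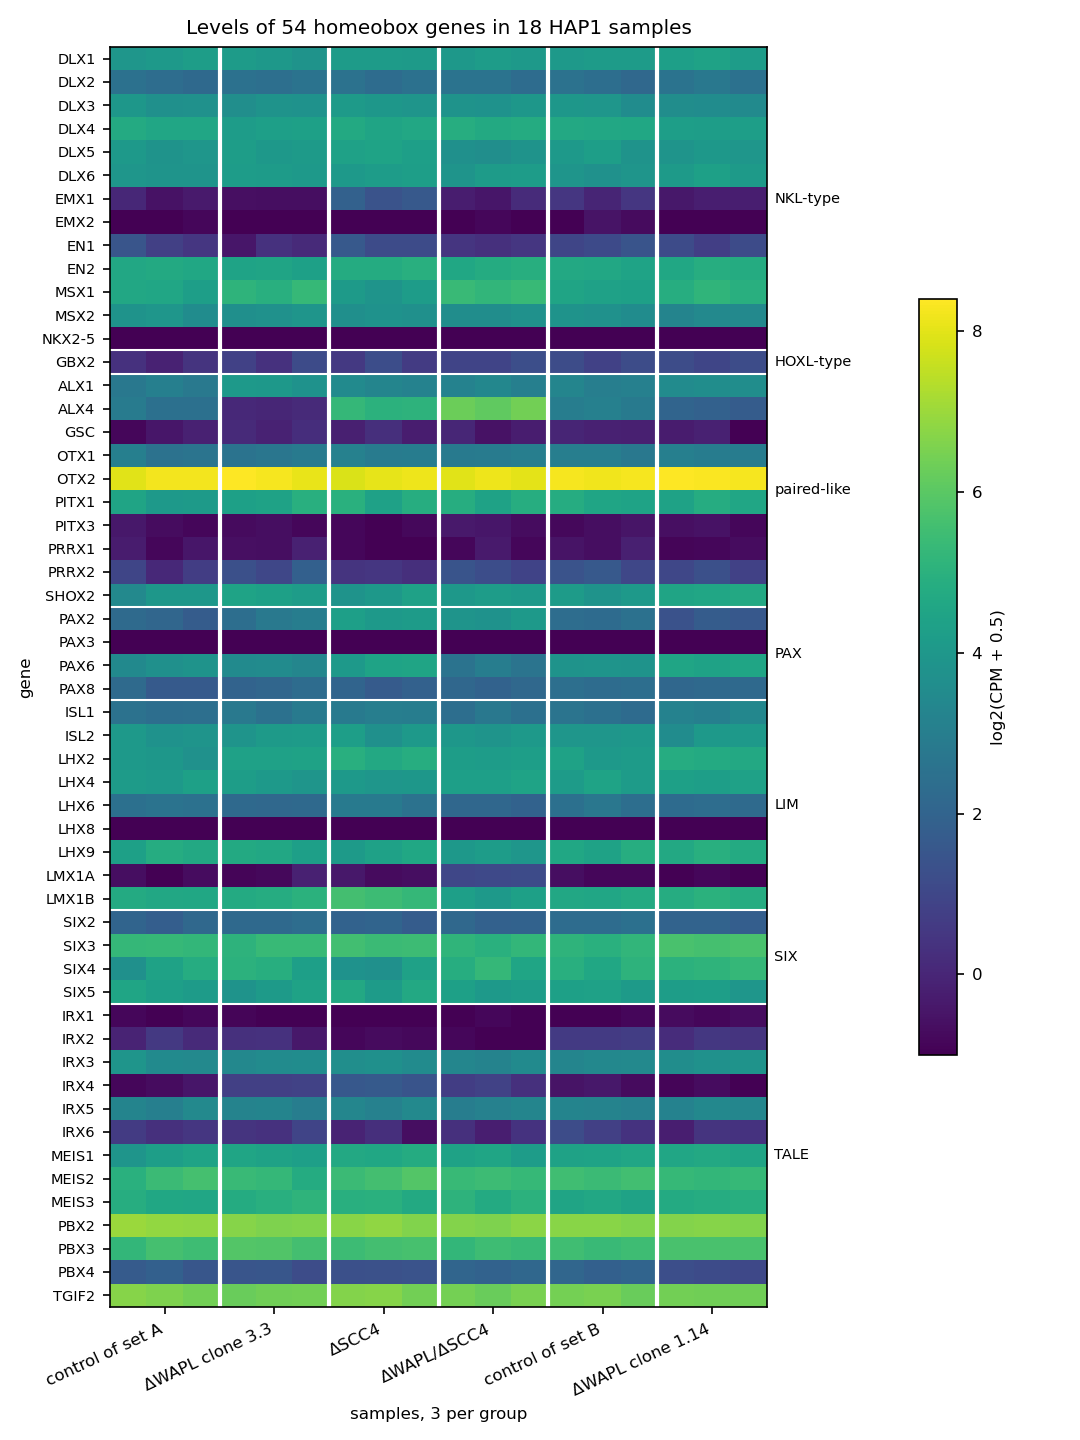
Level of each of the 54 members (one line per gene, ordered by class) in the 18 samples (columns, 3 per group) as log2 of CPM plus 0.5, from dark (low) to yellow (high). Most lines keep 1 colour across all groups, OTX2 is the brightest, and ALX4 is dark in *ΔWAPL* clone 3.3 and bright in *ΔSCC4* and *ΔWAPL*/*ΔSCC4* cells.

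The targeted genes were checked first. MAU2 (SCC4) fell from 65.6 ± 6.12 CPM (SD, n = 3) in set A controls to 0.699 ± 0.243 in *ΔSCC4* and 0.936 ± 0.0996 in *ΔWAPL*/*ΔSCC4* cells. WAPL RNA remained at 43.7 ± 5.73 CPM (SD, n = 3) in clone 3.3 against 99.4 ± 21.6 in its controls, and at 41.4 ± 2.89 in clone 1.14 against 120.4 ± 14.5. The total count on genes was 10007646 to 20711127 reads per sample. Of 8 blood markers 7 were under 0.5 CPM in every sample, and the remaining one, TAL1, had group means of 54.3 to 82.7 CPM except in *ΔSCC4* (4.37) and clone 1.14 (2.72). Muscle markers MYOD1 and MYOG had no reads, and the pluripotency markers POU5F1 and SOX2 were high, with group means from 460.8 to 673.4 and from 426.3 to 574.8 CPM, while NANOG was at or under 0.225 CPM in every sample. LIN28A had 2.04 CPM in the controls of set A and 3.20 in those of set B but at most 0.174 as a group mean in the mutant lines, and LIN28B had group means of 73.0 to 96.7 CPM. The neuronal marker MAP2 was at 2.78 CPM in *ΔWAPL*/*ΔSCC4* cells and at 16.2 to 32.0 CPM in the other groups, and the sum over 5 neuronal markers was 11.01 to 11.7 CPM there against 21.8 to 40.6 elsewhere. That sum follows mostly MAP2. TUBB3 was at 1.72 CPM there against 0.859 to 1.85 in the other groups, and SYP at 6.83 against 4.80 to 15.4. RBFOX3 and STMN2 were under 0.5 CPM in every sample. The sum over 6 epithelial and mesenchymal markers was 398.9 to 463.4 CPM in *ΔWAPL*/*ΔSCC4* cells and 640.8 to 800.4 in their controls, with VIM at 254.8 against 587.1 CPM and KRT8 at 48.6 against 8.15 CPM. The epithelial markers did not move alike, with KRT18 at 73.7 against 62.0, EPCAM at 0.658 against 1.17 and CDH1 at 0 against 0.0846 CPM. CDH2 was at 52.9 against 71.6 CPM. In clone 1.14 the sum over the same 6 markers was 477.0 to 511.5 CPM against 591.3 to 668.5. EPCAM was at 0.0953 against 1.51 CPM there, while CDH2 was at 85.7 against 76.9 CPM. The part of such differences in the results below was not tested.

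Across the 4 mutant lines, 46 members could be tested in at least 1 comparison with controls, and 24 of them changed in at least 1, where 27.4% of all genes tested in at least 1 did. Of these 17 changed in 1 line only, ALX1 and LHX2 in 2, and IRX4, MSX1, PAX2 and PAX6 in 3. ALX4 passed the test in all 4. A change of at least 2-fold that passed the test was seen for 8 members, and for 10.8% of all genes. Among the 8, EMX1, IRX4 and LMX1A passed the filter on low counts only through mutant samples in which they were high. The same filter removed IRX2 from the fits of the lines without SCC4. The counts of 24 and 8 are therefore not read as results about the members. The comparisons of clone 3.3, *ΔSCC4* and *ΔWAPL*/*ΔSCC4* cells share the 3 controls of set A, so their results are not independent.

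ALX4, a paired-like regulator of skull, limb and hair follicle development, changed most. It is ENSG00000052850, on the minus strand of chromosome 11 of GRCh37 from 44281990 to 44331689. The controls of set A had 7.09, 5.08 and 5.01 CPM and clone 3.3 had 0.549, 0.495 and 0.597 CPM. *ΔSCC4* cells had 38.0, 32.3 and 33.1 CPM, and *ΔWAPL*/*ΔSCC4* cells had 76.7, 68.0 and 83.5 CPM. In set B the controls had 7.43, 7.99 and 6.92 CPM and clone 1.14 had 3.61, 3.28 and 2.85 CPM. ALX4 was thus lower than every control of the set in both *ΔWAPL* clones and higher than every control in both lines without SCC4, with no overlap of groups.

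The log2 fold change of ALX4 was -3.39 in clone 3.3 (SE 0.27, adjusted p = 9.626e-07, edgeR's quasi-likelihood test with Benjamini-Hochberg adjustment, as for all adjusted p below) and -1.20 in clone 1.14 (SE 0.12, adjusted p = 0.000636). It was 2.59 in *ΔSCC4* (SE 0.18, adjusted p = 1.302e-05) and 3.73 in *ΔWAPL*/*ΔSCC4* cells (SE 0.18, adjusted p = 7.787e-07). Against clone 3.3, from which they were made, the double knockout cells had a log2 fold change of 7.10 (SE 0.19, adjusted p = 1.579e-12), from 27 reads summed over the 3 clone 3.3 samples to 3926. That is a ratio of 139 after scaling for depth (95% counting interval 95.5 to 211, which like the other counting intervals covers counting error only). The fall was larger in clone 3.3 than in clone 1.14, with a difference of -2.16 on the log2 scale (SE 0.29, adjusted p = 0.000536).

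In *ΔWAPL* clone 3.3, 4 of 44 tested members changed, 3 higher and 1 lower. Of all genes tested 4.17% were higher and 3.9% lower in this comparison, and the median log2 fold change was 0.11 for the members and -0.00062 for all genes. At an unadjusted p under 0.05 there were 12 members, and DESeq2 called 4. Besides the fall of ALX4 they were rises of IRX4, ALX1 and MSX1. IRX4 passed the filter on low counts only through the clone 3.3 samples, so the split by direction is not read as a result. The count was 2 with at least 10 counts required in every sample, 7 with no filter, 10 in one fit over all 18 samples and 7 without replicate 1 of the controls.

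IRX4, a TALE gene of the Iroquois family known from the heart ventricle, was switched on. It is ENSG00000113430, on the minus strand of chromosome 5 of GRCh37 from 1877527 to 1887350. The controls of set A had 1, 2 and 4 reads (0.0650, 0.124 and 0.239 CPM) and clone 3.3 had 24, 17 and 20 reads (1.198, 1.202 and 1.33 CPM). All 3 samples of clone 3.3 exceeded all controls, by a ratio of 8.55 over summed reads (95% counting interval 3.91 to 22.1, adjusted p = 0.000222). Over all genes 0.609% of those tested switched on or off in this clone. In set B it was off in both groups, with 3, 4 and 2 reads in the controls and 1, 2 and 0 in clone 1.14, and it was too low there to be tested.

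ALX1, the other ALX gene listed and a regulator of craniofacial mesenchyme, moved opposite to ALX4. The controls of set A had 6.24, 7.92 and 6.44 CPM, and clone 3.3 had 16.3, 15.8 and 13.5 CPM. The log2 fold change was 1.13 (SE 0.17, adjusted p = 0.000314). In clone 1.14 ALX1 had 11.2, 11.8 and 11.7 CPM against 9.20, 7.66 and 8.10 CPM in its controls, a log2 fold change of 0.46 (SE 0.092, adjusted p = 0.0125). The groups did not overlap in either set.

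MSX1, an NKL-type repressor of limb, tooth and palate development, passed the test as a rise in both clones and in the double knockout. Its log2 fold change was 0.62 in clone 3.3 (SE 0.16, adjusted p = 0.0272), 0.59 in clone 1.14 (SE 0.092, adjusted p = 0.00446) and 0.82 in *ΔWAPL*/*ΔSCC4* cells (SE 0.14, adjusted p = 0.00337). The call in clone 3.3 was lost once same-numbered samples were blocked (adjusted p = 0.123) and without replicate 2 or 3 of the controls (0.0991 and 0.0794) or of clone 3.3 (0.0526 and 0.0986). *ΔSCC4* cells had 16.1 ± 1.95 CPM (SD, n = 3) against 22.0 ± 2.87 in the controls, which did not pass the test (adjusted p = 0.129). EN1, a midbrain and limb patterning gene, fell just short of the threshold in clone 3.3, with 0.542 ± 0.268 CPM against 1.47 ± 0.720 (SD, n = 3; adjusted p = 0.0518).

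In *ΔWAPL* clone 1.14, 18 of 43 tested members changed, 11 higher and 7 lower. Over all genes tested 8.7% were higher and 11.4% lower. The changes were mostly small, and 2 of the 18 reached 2-fold, ALX4 and PBX4. The median log2 fold change was 0.0499 for the members and 0.0015 for all genes. At an unadjusted p under 0.05 there were 19 members, and DESeq2 called 11. The count also rested on single samples, falling to 9 without replicate 3 of clone 1.14 and to 11 without replicate 1 or replicate 2. No member switched on or off, against 0.942% of all genes.

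PBX4, a TALE cofactor, had 1.91, 1.73 and 1.57 CPM in clone 1.14 and 3.75, 3.16 and 3.60 CPM in the controls of set B. The log2 fold change was -1.01 (SE 0.14, adjusted p = 0.00254), with no overlap. PAX2, which acts in kidney, eye and ear, fell from 4.77 ± 0.415 to 2.45 ± 0.365 CPM (SD, n = 3; log2 fold change -0.98, adjusted p = 0.00324). PAX6, which acts in eye, brain and pancreas, rose from 13.9 ± 0.217 to 22.1 ± 1.15 CPM (log2 fold change 0.66, adjusted p = 0.000953). Among LIM genes of motor neuron and forebrain development, ISL1 rose by 0.78 and LHX2 by 0.53 on the log2 scale. The other rises were those of MSX1, SIX3 (0.58), SHOX2 (0.56), ALX1, IRX3 (0.37), DLX6 (0.33), MEIS3 (0.30) and PBX3 (0.24), and the other falls those of SIX2 (-0.51), DLX4 (-0.40), MSX2 (-0.39) and MEIS2 (-0.23). The calls of DLX6, MEIS3, MSX2 and MEIS2 were each kept in 5 of 12 alternatives, and those of IRX3, PBX3 and SIX2 in 7. DESeq2 made none of these calls.

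Over both *ΔWAPL* clones against the controls of their sets, 13 of 44 tested members changed, 9 higher and 4 lower, where 8.56% of all genes tested were higher and 9.13% lower. The median log2 fold change was 0.035 for the members and 0.00479 for all genes. ALX4 was the only member past the test with a change of at least 2-fold (log2 fold change -1.96, SE 0.29, adjusted p = 0.00019). IRX4 had 1.78 (SE 0.59) and did not pass (adjusted p = 0.0527, and 0.0482 with no filter). By the exact permutation test within sets, the 2-sided p for ALX4, ALX1, MSX1 and LHX2 was 0.005 each, the smallest that 400 arrangements can give. For these 4 genes both clones lay beyond every control of their set in the same direction. That separation alone forces this p, so the permutation test adds no further support. ALX1, ALX4 and MSX1 passed the test in both clones taken alone, in the same direction. The others that passed over both clones were ISL1, LHX2, SHOX2, DLX6, MEIS3, PBX3 and LMX1B among the rises and PBX4, DLX4 and LHX6 among the falls. Of these, LMX1B kept its call in 5 of 18 alternatives, LHX6 in 8 and MEIS3 in 10, and the rest in 17 or 18.

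**Figure D2:**
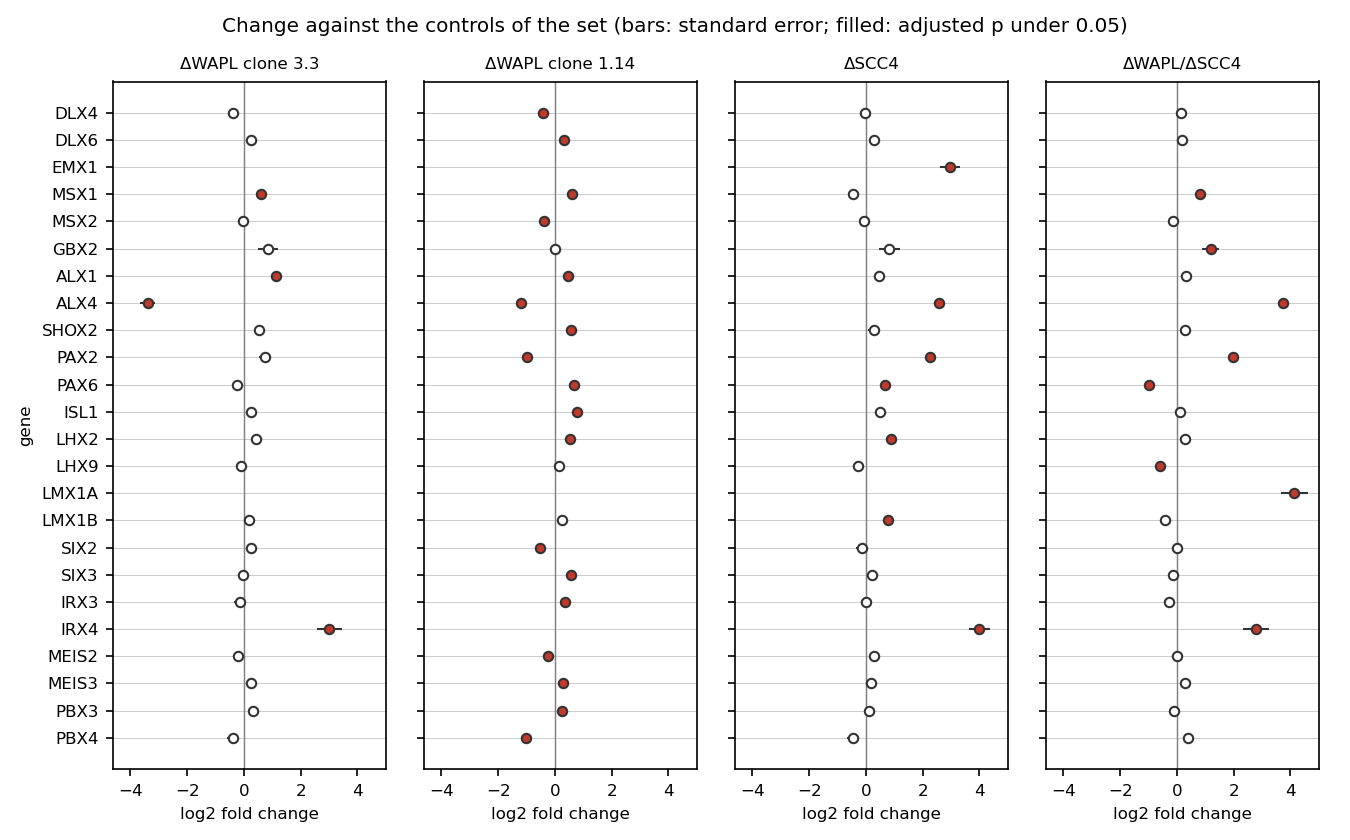
Log2 fold change with its standard error against the controls of the set (horizontal axis) for the 24 members that changed in at least 1 line, with 1 panel per line, and filled points where the adjusted p was under 0.05. ALX4 lies at -3.39 and -1.20 in the 2 *ΔWAPL* clones and at 2.59 and 3.73 in the 2 lines without SCC4, and a missing point marks a gene too low to test.

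The response differed between the clones for 5 of 44 tested members, against 2.65% of all genes tested. The difference, clone 3.3 minus clone 1.14, was 4.64 for IRX4, -2.16 for ALX4, 1.73 for PAX2 (adjusted p = 0.00308), -0.89 for PAX6 (adjusted p = 0.00735) and -0.59 for SIX3 (adjusted p = 0.0435). The SIX3 call was kept in only 5 of 18 alternatives. The IRX4 value rests on 3 reads in clone 1.14 and 9 in its controls, depends on the prior count and lost its call without replicate 2 of the set B controls (adjusted p = 0.0106 with it). PAX2 illustrates the difference, with 4.79, 6.504 and 7.43 CPM in clone 3.3 against 4.29, 3.84 and 2.86 in its controls (adjusted p = 0.0592), while it fell in clone 1.14.

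In *ΔSCC4* cells, 7 of 44 tested members changed, and all 7 were higher. Of all genes tested 5.45% were higher and 4.03% lower, and the median log2 fold change was 0.19 for the members and -0.0047 for all genes. They were ALX4, IRX4, EMX1, PAX2, LHX2, LMX1B and PAX6. At an unadjusted p under 0.05 there were 15 members, and DESeq2 called 8, the added one being the fall of IRX2 described below. EMX1 and IRX4 passed the filter on low counts only through the *ΔSCC4* samples, and the same filter removed IRX2, so the common direction of the 7 is not read as a result.

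PAX2 (ENSG00000075891, chromosome 10 of GRCh37, plus strand, 102495153 to 102589701) had 19.2, 16.3 and 17.6 CPM in *ΔSCC4* cells, above the 4.29, 3.84 and 2.86 CPM of the controls. Its log2 fold change was 2.27 (SE 0.19, adjusted p = 3.23e-05). EMX1, a gene of the dorsal forebrain (ENSG00000135638, chromosome 2 of GRCh37, plus strand, 73143389 to 73163200), had 50, 21 and 37 reads in *ΔSCC4* cells against 8, 3 and 5 in the controls. In CPM these were 3.24, 2.12 and 2.55 against 0.520, 0.186 and 0.298, a ratio of 8.18 over summed reads (95% counting interval 4.81 to 14.8, adjusted p = 0.000379). In the other mutant lines its highest sample was at 0.624 CPM, and over both *ΔWAPL* clones, with no filter, it was lower by a log2 fold change of -1.20 (adjusted p = 0.017 in edgeR, 0.0574 in DESeq2).

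IRX4 was switched on in *ΔSCC4* cells too, with 39, 26 and 32 reads (2.53, 2.63 and 2.20 CPM). That is a ratio of 16.8 to the controls (95% counting interval 7.84 to 42.9, adjusted p = 6.955e-05). IRX4 was the 1 member that met the rule for a switch in *ΔSCC4* cells, where 0.544% of all genes did. The 2 LIM genes of forebrain and limb patterning rose less, LHX2 by 0.89 (SE 0.16, adjusted p = 0.00427) and LMX1B by 0.79 (SE 0.14, adjusted p = 0.00551). PAX6 rose by 0.69 (SE 0.17, adjusted p = 0.0302), with 16.1, 21.5 and 21.8 CPM against 10.5, 12.6 and 13.6, and this call was lost without replicate 2 of the controls or replicate 2 or 3 of *ΔSCC4*.

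IRX2, a neighbour of IRX4 in the same Iroquois cluster, went the other way. It is ENSG00000170561, on the minus strand of chromosome 5 of GRCh37 from 2745959 to 2751791. The controls of set A had 7, 16 and 10 reads and clone 3.3 had 15, 11 and 4. *ΔSCC4* cells had 1 read in each sample, and *ΔWAPL*/*ΔSCC4* cells had 1, 0 and 0 reads. The low counts removed IRX2 from these fits, and with no filter its adjusted p in edgeR was 0.0047 in *ΔSCC4* and 0.00153 in *ΔWAPL*/*ΔSCC4* cells (0.0405 and 0.00551 in DESeq2). The ratio over summed reads was 0.11 in *ΔSCC4* (95% counting interval 0.0216 to 0.351) and 0.0284 in *ΔWAPL*/*ΔSCC4* cells (0.000699 to 0.17). IRX2-DT, the transcript that starts next to IRX2, also fell, from 1.70 to 0.0905 CPM in *ΔSCC4* (adjusted p = 0.000444) and to 0.234 CPM in *ΔWAPL*/*ΔSCC4* cells (adjusted p = 0.00013).

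Same-numbered samples of the set A controls and of *ΔSCC4* deviated alike from their group means (correlations 0.675, 0.115 and 0.615). Among the pairs of groups checked, no other met the rule for pairing. The same controls gave -0.515, -0.000816 and -0.487 with clone 3.3. Samples handled together and a like order within each group by accident cannot be told apart. The block results thus depend on a pairing that the labels do not state. With the number as a block, 19 members passed the test in *ΔSCC4*, 16 higher and 3 lower, among them all 7 above. Under the block 22.3% of all genes tested were higher and 23.7% lower. The 12 added members included PITX1 (log2 fold change 0.53, adjusted p = 0.00146), MEIS1 (0.48, adjusted p = 0.00244), DLX5 (0.42, adjusted p = 0.00386), MEIS2, ISL1, ALX1, DLX6, SIX3 and SHOX2 on the higher side and MSX1 (-0.44, adjusted p = 0.00975), SIX4 and LHX9 on the lower. Between replicates 1 and 3 of the set A controls the median log2 difference was 0.14 over the members and 0.00198 over all genes, and in *ΔSCC4* it was 0.08 and 0.0122. The members were GC-rich, with a median of 57.2% against 48.0% for all genes tested, and the part of base composition in the *ΔSCC4* result was not tested.

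**Figure D3:**
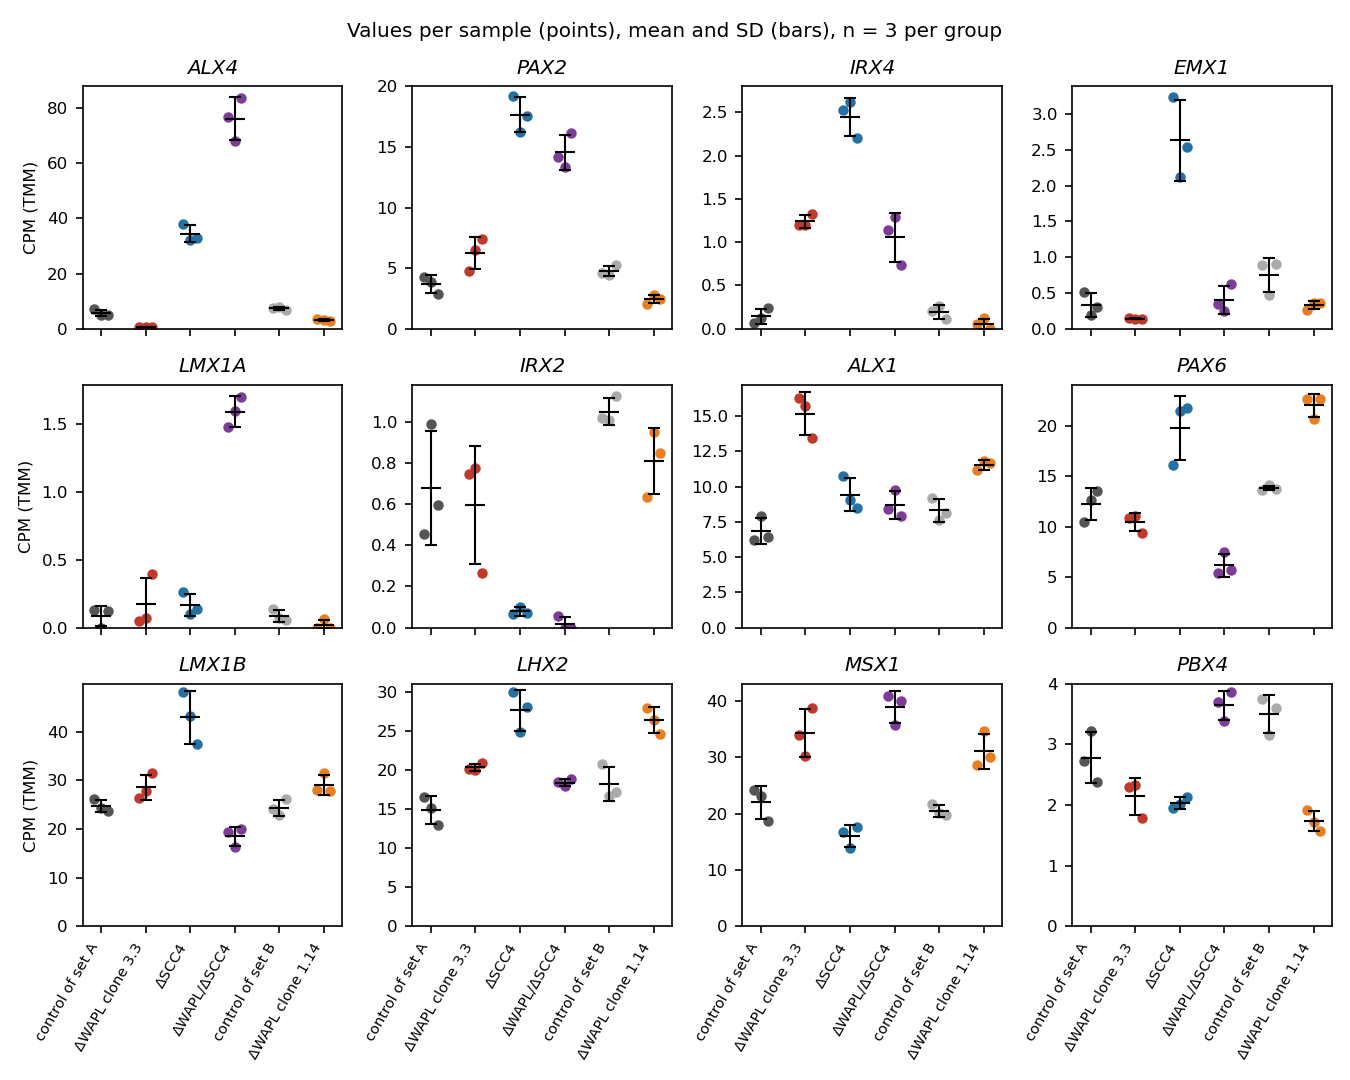
CPM per sample (points) with the mean and SD (bars) in the 6 groups for 12 members, each panel on its own linear axis from 0. ALX4, PAX2, EMX1 and IRX4 are high in *ΔSCC4* cells, LMX1A is above 1 CPM in *ΔWAPL*/*ΔSCC4* cells alone, and IRX2 is near 0 in both lines without SCC4.

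In *ΔWAPL*/*ΔSCC4* cells against the controls of set A, 8 of 44 tested members changed, 6 higher and 2 lower. Of all genes tested 4.65% were higher and 3.3% lower, and the median log2 fold change was 0.10 for the members and 0.00061 for all genes. At an unadjusted p under 0.05 there were 14, and DESeq2 called 8. The rises were those of ALX4, LMX1A, IRX4, PAX2, GBX2 and MSX1, and the falls those of PAX6 and LHX9. LMX1A and IRX4 passed the filter on low counts only through the double knockout samples. The same filter removed IRX2, whose fall is described above, so the split by direction is not read as a result.

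LMX1A, a LIM gene of the roof plate and of midbrain dopaminergic neurons, was switched on. It is ENSG00000162761, on the minus strand of chromosome 1 of GRCh37 from 165171104 to 165325952. *ΔWAPL*/*ΔSCC4* cells had 26, 26 and 30 reads (1.48, 1.60 and 1.70 CPM). The controls of set A had 2, 0 and 2 reads, clone 3.3 had 1, 1 and 6, and *ΔSCC4* cells had 4, 1 and 2. Every double knockout sample was above every sample of the other groups. The ratio over summed reads was 19.2 to the controls (95% counting interval 7.24 to 72.3, adjusted p = 0.000259) and 9.81 to clone 3.3 (4.75 to 23.5, adjusted p = 0.000126). It was the 1 member that met the rule for a switch in either comparison, where 0.635% and 0.494% of all genes did.

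IRX4 stayed above the controls, with 20, 21 and 13 reads (1.14, 1.29 and 0.738 CPM; ratio 7.24, 95% counting interval 3.28 to 18.9, adjusted p = 0.0036), though 1 sample under 1 CPM kept it from counting as on. PAX2 had 14.2, 13.4 and 16.2 CPM, with a log2 fold change of 1.99 (SE 0.17, adjusted p = 3.928e-05). PAX6 had 5.41, 7.50 and 5.67 CPM, below every control, with a log2 fold change of -0.99 (SE 0.17, adjusted p = 0.00408). GBX2, a hindbrain organizer gene, had 1.42, 1.42 and 1.87 CPM against 0.781, 0.433 and 0.835 in the controls (log2 fold change 1.19, SE 0.30, adjusted p = 0.0334), a call that DESeq2 did not make. That range overlaps the set B controls, 1.77, 1.28 and 1.80 CPM. LHX9, a gonad and forebrain LIM gene, fell by 0.59 on the log2 scale (SE 0.15, adjusted p = 0.0367). That call was lost in 5 of 12 alternatives, namely with at least 10 counts required in every sample and without replicate 2 or 3 of the controls or replicate 1 or 3 of the double knockout.

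Against clone 3.3, *ΔWAPL*/*ΔSCC4* cells differed in 10 of 44 tested members, 5 higher and 5 lower, where 6.05% of all genes tested were higher and 4.55% lower. The median log2 fold change was -0.024 for the members and -0.011 for all genes. The rises were those of ALX4, LMX1A, PAX2 (log2 fold change 1.23, SE 0.17, adjusted p = 8.468e-05), PBX4 (0.76) and DLX4 (0.51). The falls were those of ALX1 (-0.81, SE 0.14, adjusted p = 0.00112), PAX6 (-0.76), LMX1B (-0.63), LHX9 (-0.51) and PBX3 (-0.43). The calls of LHX9 and PBX3 were kept in 8 of 12 alternatives, that of PBX4 in 9 and that of DLX4 in 10. DESeq2 did not call PBX4 (adjusted p = 0.0715). LMX1A passed the filter on low counts only through the double knockout samples. The same filter removed IRX2, which was lower with no filter (adjusted p = 0.000235 in edgeR, 0.00879 in DESeq2). The split by direction is therefore not read as a result. ALX1 had 8.43, 9.78 and 7.89 CPM in the double knockout, which overlapped its range in *ΔSCC4* cells, 8.47 to 10.8 CPM.

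Whether loss of SCC4 had the same effect with and without WAPL was tested as an interaction in the 12 samples of set A. It differed for 10 of 46 tested members, against 11.3% of all genes tested. The difference is the log2 fold change of SCC4 loss in clone 3.3 minus that in HAP1. It was 4.52 for ALX4 (SE 0.27, adjusted p = 4.18e-08), 1.22 for PBX4 (adjusted p = 0.00409) and 0.56 for DLX4 (adjusted p = 0.0407), of which the DLX4 call was kept in 7 of 18 alternatives. It was negative for the other 7, with -4.23 for IRX4 (SE 0.46, adjusted p = 1.689e-05), -1.44 for PAX6, -1.41 for LMX1B, -1.26 for ALX1, -1.03 for PAX2, -1.03 for LHX2 and -0.82 for DLX5.

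LMX1B and PAX6 changed in opposite directions in the 2 backgrounds. LMX1B had 48.2, 43.3 and 37.5 CPM in *ΔSCC4* cells against 26.2, 24.3 and 23.8 in controls, but 19.4, 16.2 and 19.97 in *ΔWAPL*/*ΔSCC4* cells against 26.5, 27.9 and 31.5 in clone 3.3. IRX4 rose on SCC4 loss in HAP1 and did not pass the test in clone 3.3, where it was already on (ratio over summed reads 0.847, 95% counting interval 0.576 to 1.24). EMX1 had 6, 4 and 11 reads in the double knockout (ratio to the controls of set A 1.23, 95% counting interval 0.613 to 2.53) against 7 in all in clone 3.3 (ratio 2.87, 95% counting interval 1.18 to 8), and its interaction of -1.50 did not pass the test (adjusted p = 0.249).

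**Figure D4:**
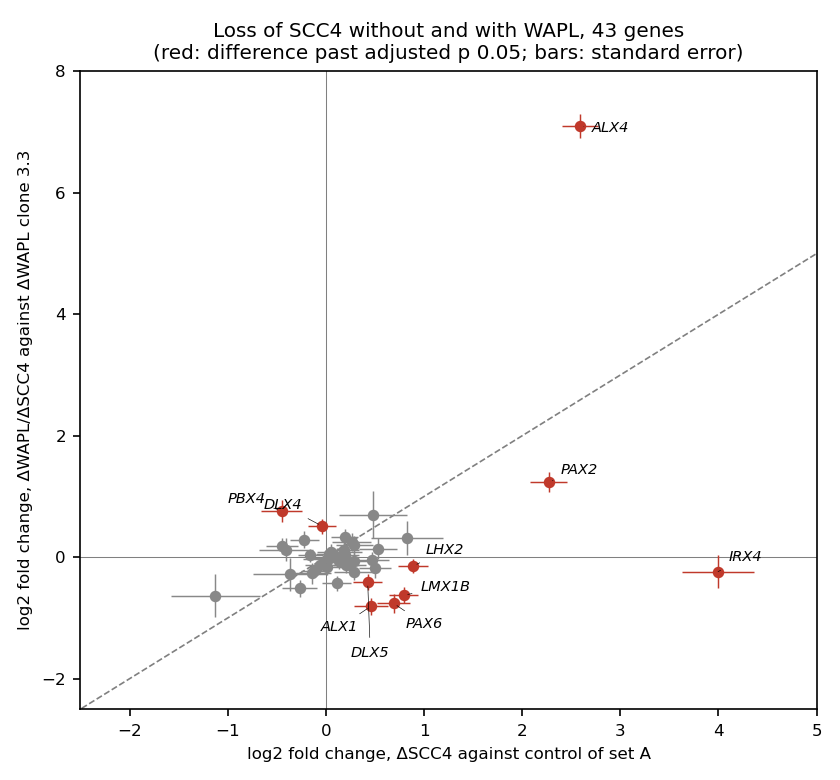
Log2 fold change on SCC4 loss in HAP1 (horizontal) and in *ΔWAPL* clone 3.3 (vertical) for the 43 members tested in both, with standard errors, a dashed line of equal effect, and in red the members whose 2 effects differ. ALX4 lies far above the line (2.59 and 7.10), IRX4 far below it, and LMX1B and PAX6 lie right of 0 and below 0.

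Members that sit next to each other on a chromosome did not always move alike. In clone 1.14 SIX3 rose by 0.58 while SIX2 fell by 0.51 on the log2 scale. The SIX2 call was kept in 7 of 12 alternatives. It was lost in DESeq2 (adjusted p = 0.146), without replicate 1 of the controls and without any 1 replicate of clone 1.14. Other neighbours are given side by side, and whether they differ was not tested. DLX4 fell by 0.40 in that clone, and DLX3, beside it, had a log2 fold change of -0.29 (adjusted p = 0.143). IRX3 rose there by 0.37, and IRX5 had 0.11 and IRX6 -0.92, neither past the test. The IRX3 call was kept in 7 of 12 alternatives and lost in DESeq2 (adjusted p = 0.0952). The interaction was -0.82 for DLX5 (adjusted p = 0.00502) and -0.35 for DLX6 (adjusted p = 0.236). DLX1 and DLX2 passed in no comparison.

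The nearest tested gene on each side was looked up for every member that changed by at least 2-fold, which gave 34 neighbour values around 17 member values. Of the 34, 4 passed the test, 2 in the direction of the member. EXT2 and CD82 recur among the 34 values, since they flank ALX4 in every comparison. Over all genes tested, 4.17% were higher and 3.9% lower in clone 3.3, and 8.7% and 11.4% in clone 1.14. In *ΔSCC4* these shares were 5.45% and 4.03%. For *ΔWAPL*/*ΔSCC4* cells they were 4.65% and 3.3% against controls and 6.05% and 4.55% against clone 3.3. The count of 4 is not read as a result about neighbours. LRRIQ1, 15.8 kb from ALX1, rose with it in clone 3.3 (log2 fold change 1.73, SE 0.23, adjusted p = 0.000104), and EXT2, 8.48 kb from ALX4, fell with it in clone 1.14 (-0.27, SE 0.056, adjusted p = 0.0138). The other two were the falls of IRX2-DT beside the rise of IRX4 in the lines without SCC4, 864.9 kb away. EXT2 did not pass the test in *ΔSCC4* (0.10, adjusted p = 0.726) or *ΔWAPL*/*ΔSCC4* cells (-0.16, adjusted p = 0.661), where ALX4 rose.

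Further homeobox genes outside the list, 91 of 93 matched, gave 4 of 55 tested in clone 3.3 (all lower), 20 of 57 in clone 1.14 (10 higher), 6 of 56 in *ΔSCC4* (2 higher) and 8 of 58 in *ΔWAPL*/*ΔSCC4* cells (3 higher). The shares over all genes tested were 4.17% higher and 3.9% lower in clone 3.3, and 8.7% and 11.4% in clone 1.14. In *ΔSCC4* they were 5.45% and 4.03%, and in *ΔWAPL*/*ΔSCC4* cells 4.65% and 3.3%. The median log2 fold change of these further homeobox genes ran from -0.13 in clone 3.3 to 0.13 in clone 1.14. In *ΔSCC4* cells NKX2-1, a thyroid, lung and forebrain regulator, fell from 25.2 ± 1.71 to 4.45 ± 0.466 CPM (SD, n = 3; adjusted p = 7.376e-06), and PAX7 rose from 0.0206 ± 0.0357 to 1.09 ± 0.327 CPM (adjusted p = 0.000987). In *ΔWAPL*/*ΔSCC4* cells TLX3 had 1.66 ± 0.483 CPM against 0.287 ± 0.116 in the controls (adjusted p = 0.00167). PAX7 and TLX3 passed the filter on low counts only through the mutant samples, so the splits by direction in this list are not read as a result.

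Of 25 matched genes that encode partners or companions of homeodomain proteins, 6 of 18 tested changed in clone 3.3 (4 higher), 10 of 18 in clone 1.14 (8 higher), 7 of 19 in *ΔSCC4* (6 higher) and 12 of 19 in *ΔWAPL*/*ΔSCC4* cells (6 higher). Over all genes tested the shares were 4.17% higher and 3.9% lower in clone 3.3, and 8.7% and 11.4% in clone 1.14. In *ΔSCC4* they were 5.45% and 4.03%, and in *ΔWAPL*/*ΔSCC4* cells 4.65% and 3.3%. The median log2 fold change of the partner genes ran from 0.099 in clone 3.3 to 0.37 in *ΔSCC4*. EYA1, a coactivator of sine oculis homologues, rose in both *ΔWAPL* clones, by 1.19 in clone 3.3 and 2.40 in clone 1.14 on the log2 scale. LMO4, a LIM-only cofactor, rose by 1.26 and 1.47, and TWIST1, a basic helix-loop-helix factor of mesenchyme, by 1.40 in each. TLE1, a corepressor, rose from 0.912 ± 0.0567 to 11.1 ± 1.02 CPM (SD, n = 3) in *ΔSCC4* cells (log2 fold change 3.58, SE 0.20, adjusted p = 2.146e-06). EYA2 had no reads in clone 3.3 and 2.64 ± 0.172 CPM in *ΔWAPL*/*ΔSCC4* cells, above the 0.373 ± 0.0163 CPM of the controls (adjusted p = 3.834e-05). It passed the filter on low counts there only through the double knockout samples. The splits by direction of the partner genes are therefore not read as a result.

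In the fits with the filter and without the block, the remaining members gave no call against controls in any single line. These were 22 tested genes, DLX1, DLX2, DLX3, DLX5, EN1, EN2, OTX1, OTX2, PITX1, PRRX2, PAX8, ISL2, LHX4, LHX6, SIX4, SIX5, IRX2, IRX5, IRX6, MEIS1, PBX2 and TGIF2, and 8 too low to test, EMX2, GSC, IRX1, LHX8, NKX2-5, PAX3, PITX3 and PRRX1. The highest sample among the latter 8 was at 0.707 CPM, in GSC. Under other settings some of the 22 did pass. PITX1, MEIS1, DLX5 and SIX4 passed in *ΔSCC4* with the block, and DLX5 and MEIS1 also in one fit over all samples. IRX2 passed in both lines without SCC4 with no filter. EN1 and PRRX2 passed in clone 3.3 with no filter (adjusted p = 0.0125 and 0.0284), with the block and in one fit over all samples, and LHX6 passed in *ΔWAPL*/*ΔSCC4* cells in one fit over all samples and over both *ΔWAPL* clones. The LHX6 call over both clones was kept in 8 of 18 alternatives. Calls of on and off moved with the limits, and with 1 CPM as the limit for both states the 4 switches became 8, among them ALX4 going off in clone 3.3 and EMX1 going on in *ΔSCC4* cells. With on set at 2 CPM and off under 1 CPM there were again 4, but then ALX4 going off in clone 3.3 and on from there in the double knockout, and IRX4 and EMX1 going on in *ΔSCC4* cells, while LMX1A no longer counted. Among the members that changed in a line, antisense transcripts are annotated over IRX4, EMX1, GBX2, LMX1A, LHX2, PAX6, PBX4, DLX6, SHOX2, SIX3, MEIS2 and IRX3. Other transcripts of the same strand are annotated over LHX2, LMX1B, MEIS2 and PBX4. The strand setting of the read counting is not given in the sources used here.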

How the data were processed

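Strand-specific libraries of polyadenylated RNA were sequenced from 18 HAP1 samples. The authors aligned reads to hg19 with TopHat (the submitters' processing notes name TopHat2 2.0.9) and deposited raw HTSeq counts per gene, which were used as deposited. Rows that name no gene held 20.3% to 22.6% of each sample's counts and were left out. Positions, symbols and exon lengths came from GENCODE release 44 lifted to GRCh37, where 96.6% of gene identifiers were found.

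Each comparison was fitted across all genes in edgeR 4.0.16 under R 4.3.3 by the quasi-likelihood test, with TMM normalization and filterByExpr, and adjusted by Benjamini-Hochberg over all genes tested, at 0.05. Only the groups compared entered a fit, and the fit over both clones had the set as a covariate. SE is the size of the log2 fold change divided by the root of F, and can understate the error of low genes. The fits were tested on simulated data. DESeq2 1.42.0, its size factors, other filters, one fit of all samples, a block for the replicate number and leaving out each replicate were alternatives. The block counts as paired for *ΔSCC4* and its controls only, where every same-numbered pair correlated above 0.1, a sign taken from the data and not from the labels.

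All members could be named, and values per sample were given for members that switched or changed by at least 2-fold against their controls or, for the double knockout, clone 3.3, and for others where a result turned on them. Neighbours and at most 3 genes of each further list and comparison were named. EN1, IRX2 and IRX2-DT were singled out after their values were seen. The members and lists were chosen with earlier results of these data known.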

Additional observations from a re-analysis of the deposited data

Results flagged for a closer look

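These members were singled out because a test of the difference itself, an interaction term in edgeR's quasi-likelihood fit, found that their response to the same loss differed between 2 settings. Clone and set cannot be told apart in the first group, and no cause was tested in either.

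Between the *ΔWAPL* clones (clone 3.3 minus clone 1.14), the log2 fold change differed by 4.64 for IRX4, -2.16 for ALX4, 1.73 for PAX2, -0.89 for PAX6 and -0.59 for SIX3. The SIX3 difference kept its call in only 5 of 18 alternatives. ALX4 fell in both clones, PAX6 and SIX3 passed the test in clone 1.14 alone, and PAX2 was lower in all 3 samples of clone 1.14 and higher in all 3 of clone 3.3 than every control of the set.

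Between SCC4 loss in *ΔWAPL* clone 3.3 and in HAP1, the log2 fold change differed by 4.52 for ALX4, -4.23 for IRX4, -1.44 for PAX6, -1.41 for LMX1B, -1.26 for ALX1, 1.22 for PBX4, -1.03 for PAX2, -1.03 for LHX2, -0.82 for DLX5 and 0.56 for DLX4. The DLX4 difference kept its call in 7 of 18 alternatives. ALX4 and PAX2 rose in both settings, while PAX6 and LMX1B rose in one and fell in the other.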

How the results depend on the processing

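The number of members past the threshold was 4 in clone 3.3 and went to 7 with no filter, 2 with at least 10 counts in every sample and 10 in one fit over all 18 samples. In clone 1.14 it was 18, and 11 in DESeq2. For *ΔSCC4* it was 7, and 13 in one fit over all samples. For *ΔWAPL*/*ΔSCC4* against control it was 8, and 4 with at least 10 counts. The difference between the clones had 5, and 2 with at least 10 counts, and the controls had 0, and 1 in one fit over all samples. The limits of on and off at 1 CPM gave 8 switches in place of 4. The cause was not tested, except that a stricter filter tests fewer low genes.

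Blocked by replicate number, the count was 19 for *ΔSCC4* (7 without), 8 over both clones (13 without) and 3 for the difference between the clones (5 without). It was 5 in clone 3.3, 16 in clone 1.14, 8 for the double knockout against control and 11 against clone 3.3. Only control A and *ΔSCC4* met the rule for pairing, so lost calls elsewhere are not read as weaker effects.

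Leaving out 1 replicate at a time gave 3 to 7 members in clone 3.3 (7 without replicate 1 of the set A controls), 9 to 20 in clone 1.14, 11 to 14 over both clones, 6 to 10 in *ΔSCC4*, 6 to 10 in *ΔWAPL*/*ΔSCC4* against control and 7 to 12 against clone 3.3. It gave 3 to 6 for the difference between the clones (3 without replicate 2 of the set B controls), 9 to 11 for the WAPL by SCC4 interaction, 0 to 0 between controls and 4 to 5 switches. Of 75 results on single members 48 kept their call under every alternative run, 27 lost it under at least 1, and 0 reversed. Those of ALX4 in every comparison were among the 48, as were EMX1 and LMX1A.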
